A study of Mus musculus with 64 samples.

Results

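The genes that encode the steroid and thyroid hormone receptors Esr1, Nr3c1, Nr3c2, Thra, Thrb and Pgrmc1 were followed through mouse development. They were taken by symbol as 6 of the 23338 genes in the count files, for their function, though with earlier results of these data known. The 64 libraries came from C57BL/6 mice, named C57BL/6 J in the study's methods: 12 individual eight-cell embryos (6 male, 6 female) that natural matings had yielded by 2.5 days post coitum, 4 lines of 2i ES cells (2 male, 2 female), 24 late-gestation fetal livers and 24 livers of adult mice aged 15 to 20 weeks, each with 12 males and 12 females. No group carried a treatment or an engineered allele. The 2i ES cells are embryonic stem cell lines, which were derived from eight-cell embryos and grown in 2i medium. Each male or female ES group holds only 2 lines. RNA of embryos was amplified by a single-cell protocol, whereas RNA of ES cells and livers went through a stranded total RNA kit, so the embryo stage and the library method cannot be told apart. Embryos had been given their sex by the authors from the expression of sex-linked genes.

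Nuclear receptors are transcription factors that bind hormones and, at DNA motifs in or near their target genes, recruit coactivators or corepressors. Esr1 encodes oestrogen receptor alpha, Nr3c1 the glucocorticoid receptor, Nr3c2 the mineralocorticoid receptor, and Thra and Thrb the thyroid hormone receptors alpha and beta, of which beta is the main form in adult liver. Pgrmc1 is not a nuclear receptor: it encodes a haem-binding membrane protein, first described for progesterone binding, that associates with cytochrome P450 enzymes. The liver is a target of all these hormones, and it also makes the plasma proteins that carry them and many of the enzymes that inactivate them.

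On GRCm38, the assembly that mm10 names, Esr1 lies at chr10:4611593-5005614, Nr3c2 at chr8:76899442-77245012, Thra at chr11:98740638-98769006, Thrb at chr14:17660261-18038090 and Pgrmc1 at chrX:36598206-36606079, all on the plus strand. Pgrmc1 is thus the X-linked member. RefSeq promoter windows (GRCm38.p6) were found for 4 of the 6 genes, with 2 start sites each for Esr1 and Thrb. These 4 are also the members that were higher in adult than in fetal liver. No window was found for Thra or Nr3c1, so the 4 cannot be compared with members that did not rise. The sequence upstream of 1 start of each of the 4 is printed here, 5′ to 3′ and up to the first exon annotated by GENCODE. Capitals mark 3 motifs searched on both strands: GGGCGG (the GC box), AGGTCA (the half-site bound by thyroid hormone receptors and other nuclear receptors) and TTCNNNGAA (the core bound by STAT5). The stretches are chr10:4709908-4710154 for the second Esr1 start, chr8:76902080-76902287 for Nr3c2, chr14:17660710-17660891 for the first Thrb start and chrX:36597943-36598192 for Pgrmc1.
Esr1: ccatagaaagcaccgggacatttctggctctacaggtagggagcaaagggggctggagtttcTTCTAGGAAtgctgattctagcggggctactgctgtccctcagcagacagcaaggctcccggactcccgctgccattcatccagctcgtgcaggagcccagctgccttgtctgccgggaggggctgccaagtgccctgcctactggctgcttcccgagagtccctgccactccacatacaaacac
Nr3c2: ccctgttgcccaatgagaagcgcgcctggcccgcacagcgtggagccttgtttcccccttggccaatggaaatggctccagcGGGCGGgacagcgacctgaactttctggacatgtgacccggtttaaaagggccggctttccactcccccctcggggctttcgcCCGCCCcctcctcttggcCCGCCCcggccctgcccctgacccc
Thrb: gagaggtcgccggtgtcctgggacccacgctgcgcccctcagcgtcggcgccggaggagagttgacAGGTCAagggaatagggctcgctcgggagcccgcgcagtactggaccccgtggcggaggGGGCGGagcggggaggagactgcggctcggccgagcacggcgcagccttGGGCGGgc
Pgrmc1: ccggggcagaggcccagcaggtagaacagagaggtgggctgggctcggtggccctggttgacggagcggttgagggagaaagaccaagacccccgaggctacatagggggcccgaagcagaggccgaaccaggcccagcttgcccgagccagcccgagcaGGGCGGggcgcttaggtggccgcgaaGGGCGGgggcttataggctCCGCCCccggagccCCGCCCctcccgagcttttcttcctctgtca

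In the 250 bases before each start, the windows of Pgrmc1, Nr3c2 and the first Thrb start were rich in CpG, with 18, 17 and 30 CpG dinucleotides against a median of 6 over all 32851 RefSeq windows of that length. The 2 Esr1 windows held 4 and 7, and the second Thrb window held 2. The GC box was present 4 times before Pgrmc1, 3 times before Nr3c2 and 3 times before the first Thrb start, and was found in 32.7% of all windows. AGGTCA was present once before the first Thrb start (14.02% of all windows) and TTCNNNGAA once before the second Esr1 start (7.02% of all windows). Neither of the last 2 motifs was found in the windows of Pgrmc1 or Nr3c2. Counts were made per gene, so they do not show which start was used in any sample.

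Between 1567583 and 10386931 reads per library fell on genes (adult liver 1567583 to 4757610, fetal liver 5145371 to 8499603, ES cells 9857929 to 10386931, embryos 4659656 to 7725432). Levels are given as CPM, counts scaled to the library total with TMM factors over all libraries. The level of 3 reads, used as the detection floor, was 0.780 to 2.25 CPM in adult livers, 0.321 to 0.504 in fetal livers, 0.212 to 0.233 in ES cells and 0.361 to 0.647 in embryos, and covers counting error only. In all 48 livers, each of the 7 hepatocyte markers present in the files had at least 3 reads, and in all 4 ES cell lines each of the 7 pluripotency markers did. The share of counted reads that fell outside genes ranged in fetal livers from 39.9% to 49.0% for males and from 34.1% to 38.1% for females, without overlap. Among the fetal livers, female replicate 14 and male replicate 11 were the least like their group (median Spearman correlation 0.959 and 0.976). By the methods the embryos came from fewer litters than there were embryos, so that some are littermates. The labels tie no library to a litter, so tests between embryos treat littermates as separate samples, and p-values at every stage measure the spread between these libraries. For the fetal livers the litters are not stated either, so any littermates among them were also treated as separate samples.

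Across the 4 stages, 5 of the 6 genes had their highest mean level in adult liver and 1, Thra, in fetal liver, although the mean of Nr3c1 was nearly the same in both livers (206 and 209.8 CPM) and was higher in fetal liver with library totals alone (231.9 and 174.1). In the embryos only Pgrmc1 was read in every library, at 28.7 CPM in the lowest, 64.6 in the median and 153 in the highest embryo. Thra was read in 10 of the 12 embryos, from 0 to 19.1 CPM with a median of 7.64. Nr3c1 was read in 2 male embryos, at 4.68 and 8.98 CPM, and in none of the 6 female embryos. Esr1 was read in 1 male and 1 female embryo, at 1.20 and 1.45 CPM. Nr3c2 and Thrb had no read in any embryo, which at 3 reads over the 12 libraries allows 0.0393 CPM. For these low genes the group of embryos was therefore mostly at 0 with single embryos above it.

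**Figure D1:**
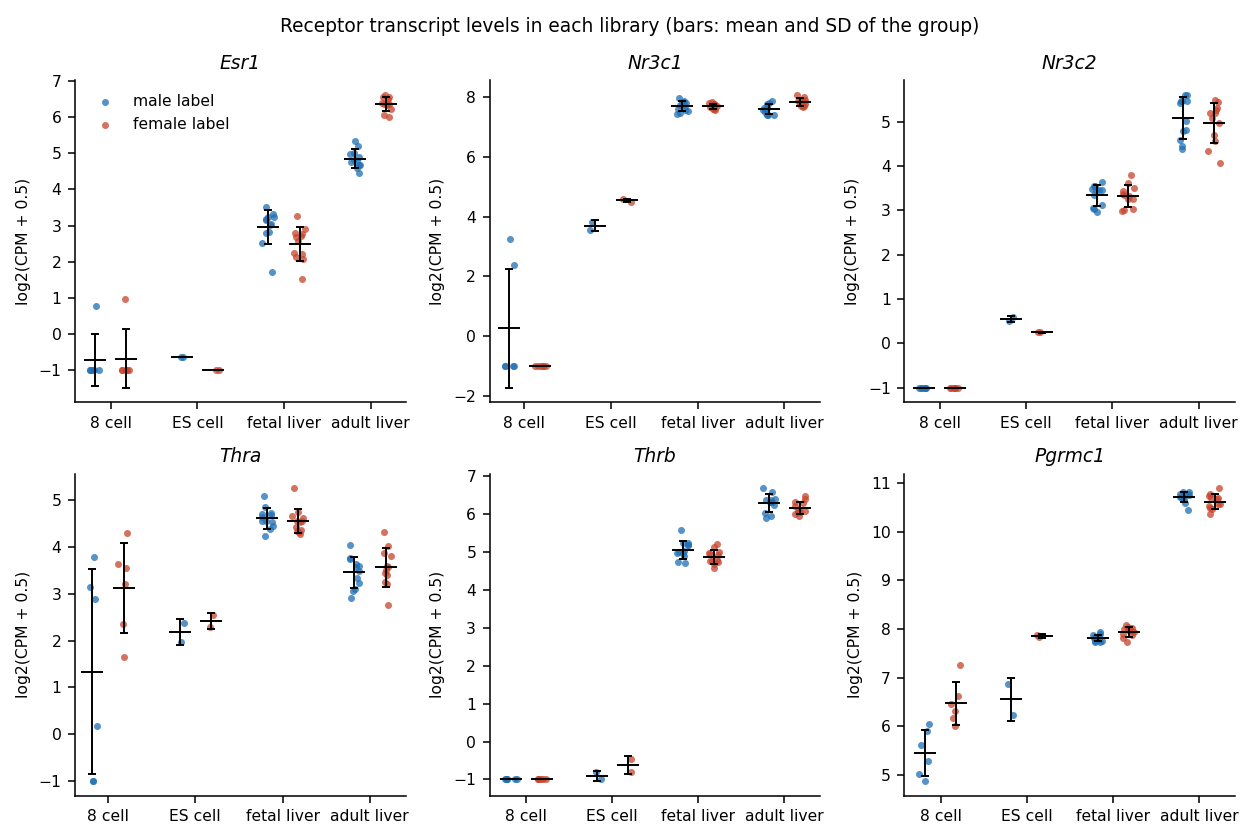
Level of each receptor transcript in every library, as log2 (CPM + 0.5), by stage and gender label (blue male, red female; bars are the mean and SD of the group; the lowest possible value, -1, is 0 reads). The adult liver points of Esr1 form 2 separate groups, female above male, while the points of the other 5 genes overlap in adult liver.

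In ES cells the order was Pgrmc1, Nr3c1, Thra and Nr3c2, with the other 2 genes at or near the floor. Pgrmc1 had 116 and 74.5 CPM in the 2 male lines and 235 and 226 CPM in the 2 female lines. Nr3c1 had 11.3 and 13.6 CPM in the male lines and 23.4 and 22.1 CPM in the female lines. Both genes were thus lower in each male line than in each female line. Thra had 3.45 to 5.33 CPM and Nr3c2 0.686 to 1.00 CPM over the 4 lines. Esr1 had 2 reads in each male line and 0 in each female line, and Thrb had at most 3 reads in a line.

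Tests between stages were made with edgeR's quasi-likelihood F test, and a gene was called when its Benjamini-Hochberg adjusted p was under 0.1 and its absolute log2 fold change over 0.5. Between ES cells and embryos, 3 of the members could be tested and 2 were called, against 62.7% of all genes tested: Pgrmc1 (log2 ES/embryo 1.20, standard error 0.24, adjusted p = 5e-04) and Nr3c1 (6.49, standard error 1.58, adjusted p = 0.00467). The Nr3c1 estimate rests on a group with 10 of 12 embryos at 0, and with the male samples alone it was 2.44 and not called (adjusted p = 0.394). Thra was not called (-0.63, standard error 1.14, adjusted p = 0.659). Against ES cells, fetal liver differed in 6 of 6 members (76.0% of all genes) and adult liver in 6 of 6 (81.5%). The log2 (ES/fetal liver) of Pgrmc1 was -0.66, but it was -0.093 and not called with females alone (adjusted p = 0.26), -1.24 with males alone, and -0.42 and not called with library totals. Against embryos, fetal liver differed in 6 of 6 (86.8% of all genes) and adult liver in 6 of 6 (86.9%), of which Thra (0.71, adjusted p = 0.0823) was called under 5 of 10 settings. With the share of reads outside genes as a covariate, 4 of the 6 were called between fetal liver and embryos, without Esr1 (3.41, adjusted p = 0.415) and Thra (1.04, adjusted p = 0.772). With most genes called in these comparisons, calls of the members were close to what held for genes at large. The mean of Thrb in adult liver was at least 1918-fold and that of Nr3c2 at least 860-fold the limit allowed by the embryos, and for fetal liver these bounds were 796-fold and 248-fold.

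Levels can be set against each other between genes only per length, here as CPM per kb of exon. On that scale Pgrmc1 led in adult liver (883 ± 80.7, SD, n = 24), followed by Nr3c1 (33.2 ± 4.29), Thrb (11.2 ± 1.65), Esr1 (7.13 ± 3.65), Nr3c2 (5.95 ± 1.76) and Thra (3.57 ± 0.977). Esr1 and Nr3c2 were within their spread of each other. In fetal liver the order was Pgrmc1 (127 ± 9.36), Nr3c1 (32.5 ± 2.85), Thra (7.57 ± 1.41), Thrb (4.64 ± 0.789), Nr3c2 (1.72 ± 0.294) and Esr1 (0.840 ± 0.291). Per exon length, Thra therefore stood above Thrb in fetal liver and was the lowest of the 6 in adult liver.

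**Figure D2:**
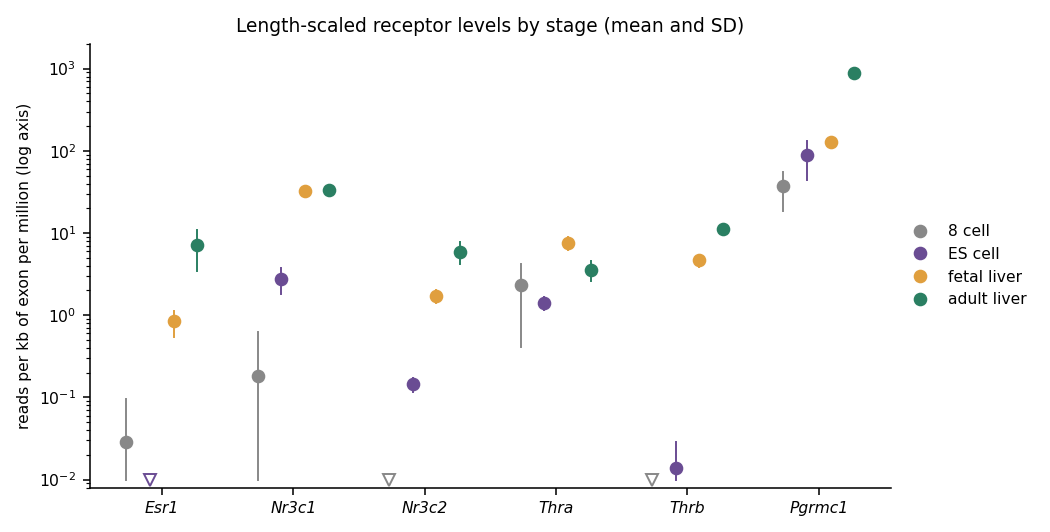
Mean level per exon length by stage, in CPM per kb of exon on a log axis (lines are SD over the libraries of the stage, cut at the lower edge of the plot; open triangles mark stages in which every library had fewer than 3 reads). Pgrmc1 is highest at every stage, and Thra and Thrb change places between fetal liver (7.57 and 4.64) and adult liver (3.57 and 11.2).

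From fetal to adult liver, 4 of the 6 members rose and 1 fell, where 28.8% of the 12979 genes tested rose and 38.4% fell (67.2% called in either direction, 3743 up and 4982 down). Scaling by library totals alone changed that split to 2403 up and 7026 down as the median log2 of all genes moved from -0.15 to -0.61, but left the 4 members up and the 1 down. Erythroid cells make up much of the fetal liver: the summed level of 8 erythroid markers was 3967 to 5892 CPM in fetal and 18.2 to 240 CPM in adult livers, with Hbb-b1 and Hba-a1 at 0 in adult livers and at means of 0.0156 and 0.00645 CPM in fetal ones. The summed level of 7 granulocyte and lymphocyte markers was 968 to 1889 CPM in fetal and 14.3 to 57.1 CPM in adult livers. The 7 hepatocyte markers summed to 26647 to 36918 CPM and 42059 to 63216 CPM. The part of these shifts in the results for the receptors was not tested, and in such bulk tissue fewer cells of a type and less RNA per cell cannot be told apart.

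Pgrmc1 had 213, 236 and 271 CPM in the lowest, median and highest of the 24 fetal livers and 1316, 1683 and 1909 CPM in the adult livers. The ranges were far apart, with a log2 (adult/fetal) of 2.80 (standard error 0.037, edgeR adjusted p = 1.96e-54). Nr3c2 had 7.28, 9.75 and 13.5 CPM in fetal and 16.3, 34.9 and 48.4 CPM in adult livers. Every adult liver was above every fetal liver (log2 1.79, standard error 0.10, adjusted p = 5.19e-23). Thrb had 23.5, 30.7 and 47.3 CPM in fetal and 59.7, 76.5 and 102 CPM in adult livers. It too was separate between the stages (log2 1.27, standard error 0.060, adjusted p = 2.61e-27).

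Esr1 had 2.36, 6.44 and 10.8 CPM in fetal livers and 21.5, 52.0 and 97.0 CPM in adult livers, with every adult liver above every fetal one. Its log2 (adult/fetal) was 2.90 (standard error 0.097, adjusted p = 2.51e-33), between the value of males alone, 1.89, and that of females alone, 3.91. Nr3c1, on the minus strand of chromosome 18, was the member that was not called. It had 173, 206 and 246 CPM in fetal and 166, 212 and 267 CPM in adult livers, ranges that overlap almost entirely (log2 0.02, standard error 0.040, adjusted p = 0.576). With library totals alone the value was -0.42. Relative to the median of all genes it was 0.17 with TMM and 0.19 with library totals.

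Thra moved the other way. It had 18.4, 23 and 37.7 CPM in fetal and 6.31, 11.2 and 19.6 CPM in adult livers, a log2 (adult/fetal) of -1.07 (standard error 0.091, adjusted p = 2.30e-16), with ranges that overlapped only between 18.4 and 19.6 CPM. The 3′ exons of Thra share 263 bases, 8.33% of its exon length, with Nr1d1 on the other strand. Nr1d1, a repressor of the circadian clock, had 1.18 ± 0.504 CPM (SD, n = 24) in fetal and 38.7 ± 10.1 CPM in adult livers. Whether reads were counted by strand is not stated in the sources used here, and reads of the shared bases may then have been set aside or credited to either gene. The part of this overlap in the Thra values was not tested.

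A pair of ratios within each library, which do not depend on library scaling but do on the exon lengths used, describe these shifts. The ratio of Thrb to Thra per exon length was 0.339 to 0.908 in fetal livers (median 0.629) and 2.00 to 5.59 in adult livers (median 3.12). All 24 fetal livers thus held more Thra per length and all 24 adult livers more Thrb. In CPM, not divided by length, Thrb had the higher mean in fetal liver too (31.2 against 23.9 for Thra). The order in fetal liver thus rests on the exon lengths, 6736 bases for Thrb and 3158 for Thra. These lengths come from GENCODE and not from the annotation used for counting. The ratio of Nr3c1 to Nr3c2 was 14.4 to 30.3 in fetal livers (median 19.02) and 3.84 to 11.3 in adult livers (median 5.56), again without overlap.

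Genes of the pathways around these receptors were counted in lists made by function, with earlier results of these data known. Among 8 tested relatives of the receptors, 6 rose and 2 fell in adult liver, with a median log2 of 0.86 against -0.15 for all genes. Of all genes tested, 28.8% rose and 38.4% fell. Esrrg, an orphan receptor related to the oestrogen receptors, rose by a log2 of 2.49 (standard error 0.20). Paqr8, a membrane progestin receptor (-0.69, standard error 0.23), and Nenf, a relative of Pgrmc1 (-0.64, standard error 0.078), fell. With library totals alone, where 9 relatives were tested, 3 rose and 3 fell. Among 15 chaperones and cochaperones that hold unliganded steroid receptors, 3 rose, 4 fell and 8 were not called (median 0.18), and with library totals the median turned to -0.27. Dnaja1 (1.70) and Hspa8 (0.67), both of the Hsp40 and Hsp70 system, were the highest, and Fkbp5 (-0.87), which is itself induced by glucocorticoids, and Dnajb1 (-0.61) the lowest. Among 18 coregulators, 2 rose and 7 fell (median -0.21). The coactivator Ppargc1b rose by 0.60, whereas Ncoa4, a coactivator that also delivers ferritin for degradation, fell by 1.44 and Gps2, a subunit of a corepressor complex, fell by 1.41 on the log2 scale. With library totals none of the coregulators rose and 10 fell.

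The genes that handle steroid ligands gave larger differences: 9 of 13 rose and 3 fell (median 2.15), where 28.8% of all genes rose and 38.4% fell. Ugt2b1, which conjugates steroids with glucuronic acid, had a log2 (adult/fetal) of 6.73 (standard error 0.095), and Akr1c6, a 17-beta-hydroxysteroid dehydrogenase, one of 6.12 (standard error 0.10). Afp, the fetal plasma protein that binds oestrogens in rodents, had 12376 and 12555 CPM in male and female fetal livers and 1.87 and 0.687 CPM in adult livers. Shbg, a carrier of sex steroids, had 8.90 and 11.5 CPM in fetal livers and no read in any adult liver. Among 10 tested genes of thyroid hormone handling, 5 rose and 3 fell (median 0.83). Dio1, which converts thyroxine to the active hormone, had 0.0600 ± 0.0997 and 0.376 ± 0.853 CPM (SD, n = 12) in male and female fetal livers. In adult livers it had 206 ± 58.2 and 239.7 ± 46.3 CPM. The transporter Slco1a4 had 0.00984 and 0.0644 CPM in male and female fetal livers and 121 and 359 CPM in male and female adult livers. Fetal means of Dio1 and Slco1a4 lay under or within the range of the 3-read floor. Neither gene was tested between the sexes in fetal liver. The amino acid transporters Slc7a5, which also carries thyroid hormone, (-4.21, standard error 0.10) and Slc7a8 (-0.94, standard error 0.14) fell.

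Of 12 tested genes known to respond to thyroid hormone, 10 rose and 2 fell (median 2.03), where 28.8% of all genes rose and 38.4% fell. Dio1 stood first and Thrsp, a regulator of lipid synthesis, was next. Thrsp had 0.234 ± 0.183 and 0.621 ± 0.705 CPM (SD) in male and female fetal livers. In male and female adult livers it had 368 and 349.7 CPM. Slc16a6, a ketone body exporter, fell by 2.71 and Mylip, which directs the LDL receptor to degradation, fell by 0.70 on the log2 scale. Of 22 genes known to respond to glucocorticoids, 11 rose, 7 fell and 4 were not called (median 0.73). Tdo2, the first enzyme of tryptophan breakdown, had 0.0926 ± 0.0874 and 1.21 ± 2.68 CPM (SD) in male and female fetal livers. In male and female adult livers it had 2210.0 and 1494 CPM. Fetal male means of Thrsp and Tdo2 were under the 3-read floor, and in fetal females each SD exceeded the mean. Neither gene was tested between the sexes in fetal liver. Pck1, the key enzyme of gluconeogenesis, had a log2 of 9.73 (standard error 0.35), while Lcn2 (-5.86) and the metallothionein Mt2 (-5.04) fell. Most of these targets are known to have other regulators as well, and Nr3c1 itself was not called. Of 6 tested genes known to respond to mineralocorticoids, 4 rose and 1 fell (median 0.82). Sgk1, Tsc22d3 and Per1 among them are also on the glucocorticoid list. The sodium channel subunit Scnn1a rose by 3.59 (standard error 0.15) and Tsc22d3, which glucocorticoids induce too, by 2.65, while the clock gene Per1 fell by 0.69 on the log2 scale. Of 17 genes that work with Pgrmc1 or in sterol synthesis, 10 rose and 4 fell (median 0.69). Insig2, which retains the sterol sensor in the endoplasmic reticulum, rose by 4.59, and the growth factor receptor Egfr by 3.84. Fech, the last enzyme of haem synthesis, fell by 2.02 on the log2 scale. With library totals alone, 7 rose and 6 fell among the genes around Pgrmc1, 11 and 10 among the glucocorticoid and 2 and 1 among the mineralocorticoid responsive genes.

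**Figure D3:**
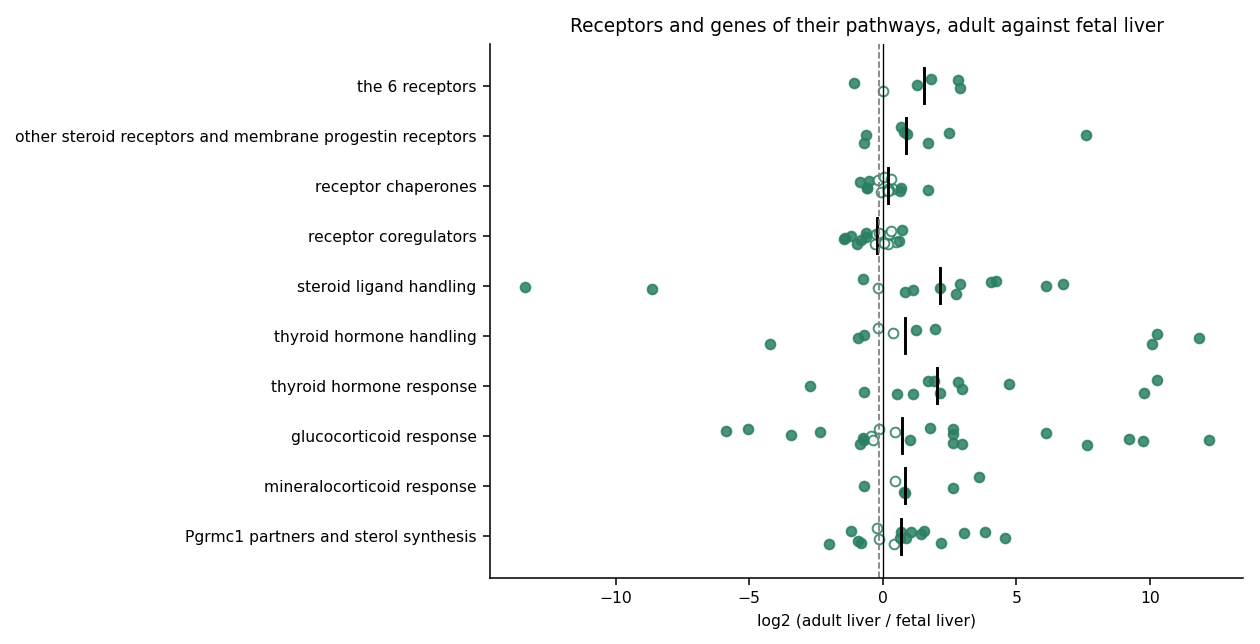
Log2 (adult/fetal liver) of the 6 receptors and of the tested genes in 9 lists around them, 1 point per gene (filled where called, open where not; black bars are list medians, the dashed line is the median of all genes tested, -0.15). The lists of steroid ligand handling (median 2.15) and thyroid hormone response (2.03) lie furthest to the right, and those of chaperones (0.18) and coregulators (-0.21) lie near 0.

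Within adult liver, 1 of the 6 members was called between males and females, where 9.48% of 10360 genes were. Esr1 had 63.9, 81.0 and 97.0 CPM in the lowest, median and highest female liver and 21.5, 27.3 and 40.1 CPM in male livers. Each of the 12 females was above each of the 12 males. This gave a log2 (male/female) of -1.53 with a standard error of 0.095 (edgeR adjusted p = 1.91e-14), and it stayed between -1.55 and -1.50 under all alternatives tried. Marker levels differed between the sexes too: the 8 erythroid markers summed to 186 to 240.3 CPM in male and 18.2 to 55.0 CPM in female livers, mostly from Alas2, and the 7 hepatocyte markers to 42059 to 51009 CPM in male and 51878 to 63216 CPM in female livers. The hepatocyte sum rests mainly on Alb (log2 male/female -0.37) and Ahsg (-0.58), while Apoa1 (0.29), Hnf4a (0.15) and Serpina1a (0.06) had values above 0. All 7 macrophage markers had values below 0, like Esr1, from -0.90 for Vsig4 to -0.25 for Marco, and summed to 374 to 666 CPM in male and 504 to 1116 CPM in female livers. The 6 endothelial and the 6 stellate and fibroblast markers also had values below 0, with sums of 458 to 552 and 565 to 951 CPM in male and 529 to 655 and 743 to 1103 CPM in female livers. Their part in the results for the receptors was not tested. Nr3c1 was lower in males by less than the fold threshold: male livers had 166, 193 and 233 CPM and female livers 202, 227 and 267 CPM (-0.26, standard error 0.060, adjusted p = 0.00155), and 11 of 12 males were below the female median. The other 4 members had values from -0.14 to 0.12 with adjusted p of 0.312 or more, namely Nr3c2 0.12 (standard error 0.17), Thra -0.14 (standard error 0.16), Thrb 0.12 (standard error 0.086) and Pgrmc1 0.07 (standard error 0.053).

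In fetal liver, Esr1 was called in the other direction, where 4.65% of 12938 genes were called. Males had 2.80, 8.12 and 10.8 CPM and females 2.36, 5.65 and 9.12 CPM, so the ranges overlapped and 10 of 12 males were above the female median. The log2 (male/female) was 0.53 (standard error 0.18, adjusted p = 0.0234), just past the fold threshold. Without female replicate 14, left out after seeing the data, which had the lowest Esr1 level of all fetal livers and 320 CPM of summed cholangiocyte markers against 26.6 to 131 in the other 23, the value was 0.46 and it was no longer called (adjusted p = 0.0298). With the share of reads outside genes as a covariate it was 0.32 (adjusted p = 0.988), and the calls over all genes fell from 601 to 9. That share and sex cannot be told apart in fetal liver. Thrb was higher in males (0.22, standard error 0.083, adjusted p = 0.0448) and Pgrmc1 lower (-0.11, standard error 0.034, adjusted p = 0.0197), both below the fold threshold. For Pgrmc1 all 12 males lay below the female median, at 213 to 245 CPM against a median of 249.5 CPM in females. Nr3c1 (0.03), Nr3c2 (0.04) and Thra (0.08) had adjusted p of 0.607 or more.

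The difference of the 2 sex effects was tested over the 48 livers as an interaction, for which 13.8% of 12991 genes were called. Esr1 was the 1 member called: its log2 (male/female) was lower by 2.02 in adult than in fetal liver (value -2.02, standard error 0.20, adjusted p = 1.05e-11), and it was called under every alternative tried, from -2.06 to -1.83. Nr3c1 (-0.24, standard error 0.077, adjusted p = 0.0170) and Pgrmc1 (0.23, standard error 0.065, adjusted p = 0.00749) passed on the p-value and not on the fold.

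**Figure D4:**
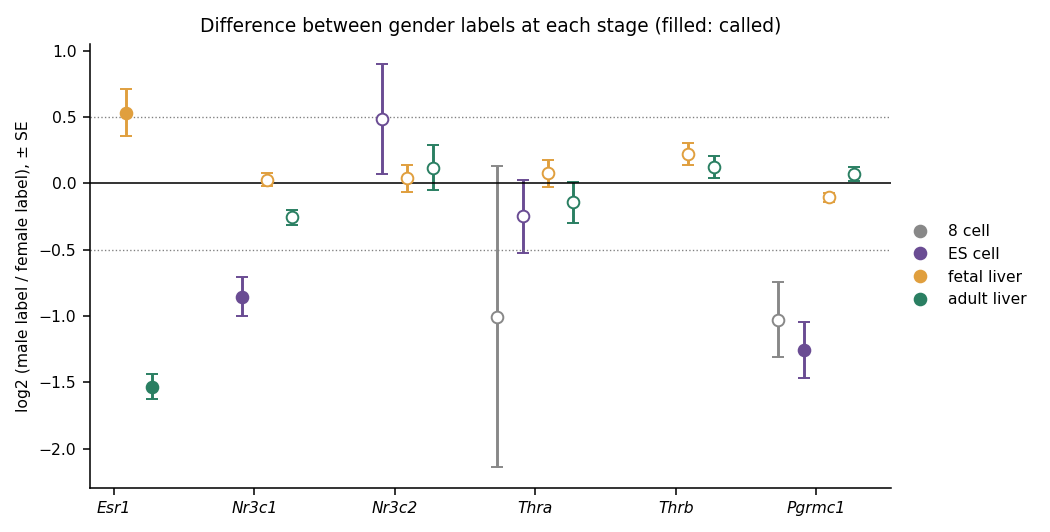
Log2 (male/female) of each receptor at each stage, with its standard error (filled points were called, open points were not; dotted lines are the fold threshold of 0.5; a gene with too few reads at a stage has no point). Esr1 is above 0 in fetal liver (0.53) and below it in adult liver (-1.53), and Pgrmc1 is below -1 in both embryos and ES cells.

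Before the liver, Pgrmc1 was the member with the clearest difference. Male embryos had 28.7, 43.2 and 65.4 CPM and female embryos 63.9, 83.3 and 153 CPM. All 6 males lay below the female median and 5 of 6 females above the highest male. The log2 (male/female) was -1.03 (standard error 0.28), which did not pass after adjustment over all genes with edgeR (adjusted p = 0.323) and did with DESeq2 (adjusted p = 0.0811), while edgeR called 0.264% of all genes. The authors, who used DESeq2, list Pgrmc1 among their sex-biased genes of eight-cell embryos. They report that nearly all genes on that list kept their direction in an independent set of embryos, without naming Pgrmc1 there. In ES cells Pgrmc1 was called, with a value of -1.26 (standard error 0.21, adjusted p = 0.0345), together with Nr3c1 (-0.85, standard error 0.15, adjusted p = 0.0360), among 9.50% of all genes. Both calls were lost when either female line, replicate 3 or 4, was left out (Pgrmc1 -1.23 and -1.29, Nr3c1 -0.81 and -0.90), with 0 edgeR calls over all genes in those fits (1289 and 1160 genes at an unadjusted p under 0.05), in which the lone female line is assumed to vary like the male ones. Thra was not called in embryos (-1.01, standard error 1.14) or ES cells (-0.25, standard error 0.27), nor was Nr3c2 in ES cells (0.48, standard error 0.41).

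Around the receptors, few genes of the lists differed between the sexes in fetal liver, where 4.65% of all genes were called. Of the coregulators 4 of 18 were male-biased, among them Crebbp (0.79, adjusted p = 1.1e-06) and Ep300 (0.86, adjusted p = 2.36e-05), which encode related histone acetyltransferases. Slc7a8 (0.61) and Per1 (0.59) were also male-biased and Pck1 female-biased (-1.65, adjusted p = 0.0396), the last with 7.46 ± 11.4 CPM (SD, n = 12) in females. The remaining lists had no call. These differences, too, run along the share of reads outside genes.

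In adult liver, 1 of 7 tested relatives of the receptors was male-biased and 2 were female-biased, where 9.48% of all genes were called. The male-biased gene was Paqr7, a membrane progestin receptor (1.00, standard error 0.13). It had 57.8 ± 12.8 CPM in male livers and 28.7 ± 6.33 in female livers. Esrrg was among the female-biased genes (-0.79, standard error 0.27, edgeR adjusted p = 0.0312). Of the genes that handle steroids, 3 of 10 were male-biased and 3 female-biased, where 9.48% of all genes were called in either direction. Ugt2b1 (1.22, standard error 0.080) and the 5-alpha-reductase Srd5a1 (1.25, standard error 0.089) were higher in males. Serpina6, the plasma carrier of glucocorticoids, had 127 ± 41.6 CPM in male and 349 ± 77.2 CPM in female livers (-1.47, standard error 0.15, adjusted p = 5.06e-08). The transporters of thyroid hormone went both ways, Slco1a1 being male-biased (2.01, standard error 0.22) and Slco1a4 female-biased (-1.57, standard error 0.16). Of 12 thyroid hormone responsive genes 1 was called, Cyp7a1, the rate-limiting enzyme of bile acid synthesis, at 124 ± 47.1 CPM in male and 305 ± 162 CPM in female livers. Of 20 glucocorticoid responsive genes 2 were male-biased, including Tdo2 (0.55), and 4 female-biased, including Serpina6. Among 15 chaperones, Fkbp5 was female-biased (-1.25, standard error 0.28) and Hsp90aa1 male-biased (0.63, standard error 0.23). Of the coregulators, Ppargc1b was male-biased (0.63) and Ppargc1a female-biased (-0.59). None of 6 mineralocorticoid responsive genes was called. Of 17 genes around Pgrmc1, 1 was male-biased (Egfr) and 4 female-biased, among them the P450 reductase Por (-0.60). List medians of log2 (male/female) lay between -0.20 and 0.22, beside -0.000896 for all genes.

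Members were also compared with each other over the 24 livers of each stage, with sex means removed and 30 relations tested by two-sided permutation. A relation passed when the adjusted p of Pearson's r was under 0.05. Of those that passed, only Nr3c1 with Nr3c2 in adult livers was also under 0.05 by Spearman's rho. In adult livers Nr3c1 and Nr3c2 varied together (Pearson r = 0.69, permutation p = 0.00036, adjusted p = 0.0108, Spearman rho = 0.71, permutation p = 2e-04, adjusted p = 0.00600, and r = 0.66 without the 2 livers farthest from the median of Nr3c1). Esr1 and Pgrmc1 varied in opposite directions (r = -0.58, permutation p = 0.00299, adjusted p = 0.0224, rho = -0.50, permutation p = 0.0141, adjusted p = 0.106), a relation that weakened to r = -0.44 without the 2 farthest livers. In fetal livers Nr3c1 was related to Esr1 (r = 0.63, permutation p = 0.00102, adjusted p = 0.0153, rho = 0.56, permutation p = 0.00563, adjusted p = 0.0724) and to Thrb (r = 0.61, permutation p = 0.00174, adjusted p = 0.0174, rho = 0.54, permutation p = 0.00724, adjusted p = 0.0724). Without the 2 livers farthest from the median these were r = 0.52 and r = 0.53. Without female replicate 14 and male replicate 11, a choice made after seeing the data, the relation of Nr3c1 to Esr1 passed by Pearson's r (r = 0.61, adjusted permutation p = 0.0293) and not by Spearman's rho (rho = 0.52, adjusted permutation p = 0.126), and that to Thrb passed by neither (r = 0.55, adjusted permutation p = 0.0568, rho = 0.51, adjusted permutation p = 0.126). Values of a library share its depth and scaling.

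Of 15868 genes whose mean reached 1 CPM in some group of stage and sex, those with the profile closest to each member were named by the root mean square difference of centred log2 levels over the 8 groups. Closest to Esr1 were Dnase1l3 (0.37), Cyp4b1 (0.37) and Cd163 (0.38). Insr, the insulin receptor, was closest to Nr3c1 (0.24), Slc25a45 to Nr3c2 (0.17), Ctsk to Thra (0.26) and Pla2g12b to Thrb (0.15). For Pgrmc1, Gpt2 (0.36) and Eci2 (0.37) were among the 3 closest genes. Likeness over 8 group means is a description and holds no test.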

How the data were processed

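RNA-seq of 64 mouse libraries was used. The authors aligned reads to mm10 with TopHat2 2.0.4 and Bowtie2 2.1.0, used SAMtools 0.1.18, removed duplicates with Picard, and deposited raw HTSeq counts per gene, unnormalized. The strand setting and the lane of each library are not given in the sources used here. Rows of reads outside genes (8.63% to 49.0% of counted reads), ambiguous and unaligned reads stayed out of totals and tests.

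Counts were tested with edgeR 4.0.16 in R 4.3.3 (filterByExpr, robust quasi-likelihood F test). Stage fits used TMM factors over all 64 libraries, sex fits factors within the stage, and the interaction those of the 48 livers. Standard errors are the absolute log2 over the square root of F. DESeq2 1.42.0 served as an alternative. The fit was tested on simulated data. Permutation tests drew 100000 resamples. Exon length is the union of GENCODE exons of transcripts with a RefSeq mRNA. Genes outside the 6 members were named by rule: per list the 2 called with the largest change in each direction between livers, the 2 with the smallest adjusted p between sexes, and the 3 genes closest in profile. Some genes that this rule names are not reported here. Members and lists were chosen with earlier results of these data known. No pair of libraries agreed within sampling noise.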

Additional observations from a re-analysis of the deposited data

Results flagged for a closer look

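Esr1 stood out in single embryos: male embryo 4 had 1.20 CPM and female embryo 11 had 1.45 CPM, from 10 and 11 reads, while the other 10 embryos had none. With 5 of the 6 embryos of each group at 0 reads, Dixon's ratio is at its highest for any single value above 0, so these flags say only that 1 embryo per group had reads. Among other values chance flags about 1 in 20 groups, and 7 groups were examined. The effect of sex on Esr1 differed between the livers, with an interaction of -2.02 on the log2 scale (edgeR adjusted p = 1.05e-11): males were higher in 10 of 12 fetal livers relative to the female median and lower in 12 of 12 adult livers.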

How the results depend on the processing

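Of 623 values of single members under other settings, 584 kept their direction and their side of the thresholds, and 111 of 125 counts of members called or related stayed within 1.5 times the reported count. With the share of reads outside genes as a covariate, 0 members were called between ES cells and embryos (Pgrmc1 was 1.09 against 1.20, adjusted p = 0.73), between the sexes in fetal liver and between the sexes in ES cells, and the log2 (male/female) turned to -0.0757 for Nr3c1, -0.36 for Nr3c2, -0.13 for Thra and -0.20 for Thrb in fetal liver and to 0.36 for Thra in ES cells, while the interaction of Thra turned to 0.0087 and that of Thrb to 0.34. With no fold threshold, 3 members passed in fetal liver, 2 in adult liver and 3 for the interaction. DESeq2, with or without independent filtering, called 1 member between the sexes of embryos. Between ES cells and embryos, 4 members were called with no filter and 1 with males alone. Nr3c1 turned to -0.42 (library totals) and -0.10 (males alone) between adult and fetal liver. Chosen after seeing the data, leaving out both fetal livers that stand apart gave 0 calls of members between the sexes in fetal liver and turned the interaction of Thrb to 0.0168. Leaving out 1 of them gave 0 calls (female replicate 14) or 1 (male replicate 11), and leaving out 1 ES line gave 0 to 2 calls of members between the sexes of ES cells. The cause of these changes was not tested. Over all genes, calls between ES cells and embryos went from 8350 to 1024 with the covariate, those between fetal liver and embryos from 12141 to 6337, those of the interaction from 1791 to 744, those between the sexes of ES cells from 1205 to 519 (2606 and 3070 without male line 1 or 2), and DESeq2 called 80 against 24 genes between the sexes of embryos. With no fold threshold 4810 against 601 genes passed between the sexes in fetal liver, 3396 against 982 in adult liver and 4390 for the interaction, and with no filter 1053 and 1580 genes were called in fetal and adult liver. Of 30 relations between members, 4 passed, against 3 to 6 under other settings. Libraries of equal number were not paired by the labels, and their deviations correlated at -0.153 to 0.0787 between fetal and adult liver. A fit with the replicate number as a block gave 5 members called between the livers and 2 between ES cells and embryos, with Thra turning to 3.50 in the latter (adjusted p = 0.141), and 5 in place of 6 between adult liver and embryos. The 3-read floor of the shallowest adult liver, 2.25 CPM, and the 2 ES lines per sex limit what could be seen.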
